A study of Oryza sativa with 8 samples.

Results

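The response of OE1 rice seedlings to 2-nitroaniline is described here across all genes that were measurable in them. OE1 is a transgenic line of the japonica cultivar ZH11, whose genotype label is overexpression of ScOYE3. ScOYE3 is one of the old yellow enzymes of Saccharomyces cerevisiae. The treated OE1 group had received 0.8 mM 2-nitroaniline in its hydroponic medium for 8 h, and the untreated OE1 group had not. Both groups carry the transgene and were 2 weeks old, and RNA was taken from whole plants. There were 2 libraries per group, and every library came from 20 pooled plants. Untreated and treated wild-type ZH11 seedlings, grown in parallel with 2 libraries each, are used to show where OE1 differed. They also enter checks that take the spread from all 8 libraries or select genes by their ZH11 replicates. The main fit used the OE1 libraries alone, because earlier results of these data had shown ZH11 replicates to be less alike. Calls lost with the spread from all 8 libraries therefore also reflect differences between ZH11 replicates. Genes with at least 1 TPM (an abundance scaled for gene length and to a fixed total per library) in at least 2 of the 4 OE1 libraries were kept. They were 24507 of the 57403 genes in the matrix. At the edge of this rule, 167 genes had a second highest value of 1 to 1.05 TPM and were kept, and 151 had one of 0.95 to below 1 TPM and were not.

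OE1 is a single line, and the labels give no name to the promoter that drives the transgene and do not state whether replicate pools had been raised and treated apart from each other. All p-values here therefore reflect the variation among these particular libraries, part of which may be technical. With 2 libraries against 2, no exact permutation test can go below p = 0.3333, so all tests are limma fits across all kept genes. In RNA from whole plants, fewer cells of a type and less RNA per cell cannot be told apart. Because 0 entries of the matrix name ScOYE3, transgene expression was not analysed here.

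Plants handle foreign aromatic compounds in stages. Oxidoreductases such as cytochrome P450s first add or expose a reactive group. Transferases then attach a sugar, glutathione or an acyl group, and transporters move the product into the vacuole or the cell wall. Old yellow enzymes are flavin-dependent reductases known for reducing activated double bonds and, for some members and substrates, nitro groups. Their plant relatives are the 12-oxophytodienoate reductases, of which one type acts in jasmonate synthesis. 2-Nitroaniline is an aromatic amine with a nitro group beside the amino group.

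After treatment, 408 genes were higher in OE1, which is 1.66% of the genes tested, and 182 were lower, which is 0.743%. A call needed a Benjamini-Hochberg adjusted p under 0.05 and a log2 fold of 1 or more in size. Fold changes are treated over untreated, computed on log2(TPM + 1), and for weakly expressed genes they come out smaller than the ratio of the TPM. In all 590 called genes the 2 treated libraries lay outside the range of the 2 untreated ones, as they did in 12933 of the 24507 kept genes. The changes were mostly moderate. The median log2 fold was 1.36 among the higher genes, -1.33 among the lower genes and -0.04 over all kept genes, and only 58 higher and 21 lower genes changed by 2 or more. At an unadjusted p under 0.05 there were 2969 higher and 2740 lower genes.

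**Figure D1:**
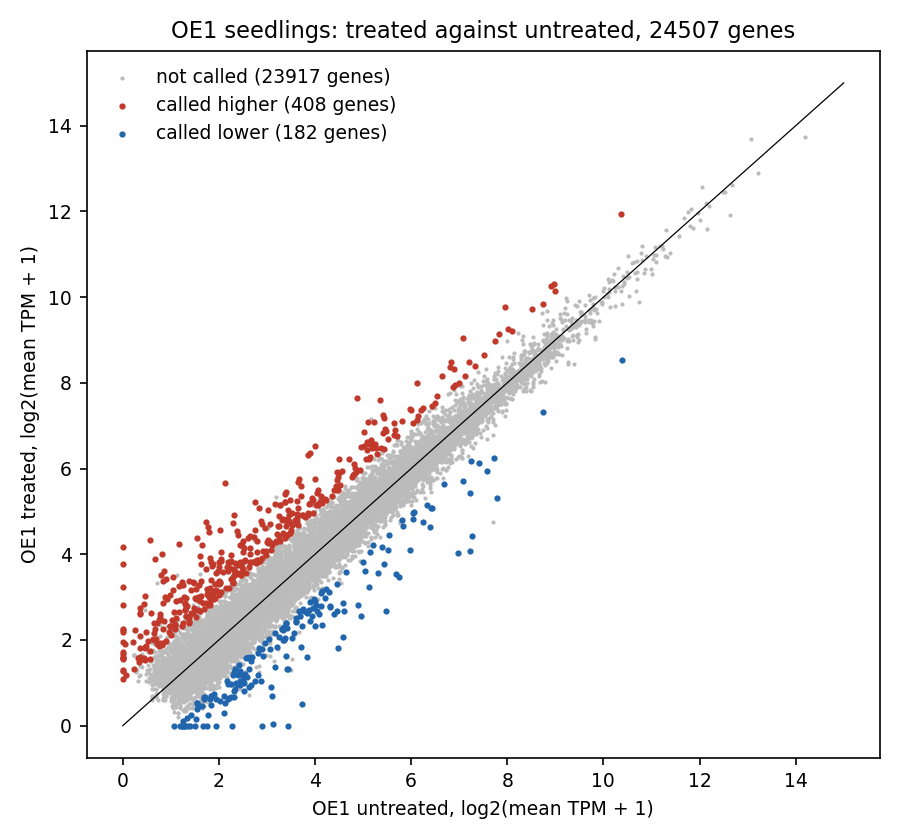
Mean TPM of each kept gene in treated OE1 (vertical axis) against untreated OE1 (horizontal axis), both as log2(mean TPM + 1), with the line of equal level. The 408 genes called higher (red) lie above the line and the 182 called lower (blue) below it, and the other genes (grey) follow it closely.

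The enzymes that modify small molecules held several of the clearest rises. LOC_Os07g23570, annotated as a cytochrome P450 of the 72A1 type, had 24.4 and 19.8 TPM in the treated libraries, against 2.39 and 2.54 TPM in the untreated ones. Its log2 fold was 2.73 ± 0.14 (SE, n = 2 libraries per group, limma adjusted p = 0.000655). LOC_Os03g55240, another P450 gene, had 97.8 and 83.7 TPM after treatment, against 16.4 and 13.6 TPM without it (2.52 ± 0.13, limma adjusted p = 0.000581). Its neighbour by locus number, LOC_Os03g55230, had 39.4 and 32.9 TPM, against 8.05 and 10.8 TPM (1.84 ± 0.16, limma adjusted p = 0.00215). LOC_Os06g03930 is annotated as a P450 of the 86A1 type, a kind known for hydroxylating fatty acids, and was already well expressed. It had 137 and 133 TPM in treated OE1 and 37.0 and 36.5 TPM in untreated OE1 (1.85 ± 0.07, limma adjusted p = 0.000451). As in all called genes, the treated and untreated libraries did not overlap, so this separation adds no support of its own.

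The family as a whole did not move in one direction. Of the 209 P450 genes kept, of 378 in the matrix, 5 were higher (2.39%, against 1.66% of all genes), 4 were lower (1.91%, against 0.743%) and 200 were not called, with a median log2 fold of -0.05. Those that fell included LOC_Os02g12690, matched to the allene oxide synthase CYP74A4. Allene oxide synthases make the precursor that leads to 12-oxophytodienoate. It had 6.72 and 6.68 TPM in treated OE1, against 15.02 and 14.52 TPM in untreated OE1 (-1.03 ± 0.11, limma adjusted p = 0.00429). LOC_Os07g44110, a second gene annotated as P450 72A1, had 8.98 and 6.59 TPM, against 16.4 and 17.1 TPM (-1.03 ± 0.15, limma adjusted p = 0.0123).

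Among sugar-attaching enzymes, few members changed as well. The UDP-glycosyltransferase gene LOC_Os01g08440 had 83.0 and 78.7 TPM in treated OE1, against 15.01 and 12.6 TPM in untreated OE1 (2.47 ± 0.11, limma adjusted p = 0.000451). LOC_Os02g10880 had 38.2 and 36.8 TPM, against 14.8 and 14.2 TPM (1.32 ± 0.09, limma adjusted p = 0.00124). LOC_Os09g34214 had 35.6 and 33.7 TPM, against 15.5 and 15.9 TPM (1.09 ± 0.09, limma adjusted p = 0.00204). Together with LOC_Os01g08090 and LOC_Os09g34250, both at 1.01, they were 5 of 116 kept genes that rose (4.31%, against 1.66% of all genes). Only 1 fell (0.862%, near the 0.743% of all genes).

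Acyl and glutathione transfer genes were called in both directions, where 1.66% of all genes were higher and 0.743% lower. Of the 67 BAHD acyltransferase genes, which transfer acyl groups from coenzyme A to many plant metabolites, 3 rose (4.48%) and 2 fell (2.99%). The highest fold of these was that of LOC_Os02g28220, with 7.58 and 6.21 TPM in treated OE1, against 1.90 and 1.81 TPM in untreated OE1 (1.46 ± 0.16, limma adjusted p = 0.00474). Of the 79 glutathione S-transferase genes, which conjugate glutathione to electrophilic compounds, 1 rose (1.27%), 5 fell (6.33%) and 73 were not called. The one that rose was LOC_Os10g22070, matched to GSTU6, with 27.5 and 26.2 TPM, against 11.1 and 11.0 TPM (1.21 ± 0.10, limma adjusted p = 0.00184). LOC_Os10g38640, matched to the same protein, was among those that fell, with 2.58 and 2.30 TPM after treatment, against 6.39 and 8.44 TPM without it (-1.28 ± 0.17, limma adjusted p = 0.00899). LOC_Os01g72130 was the most abundant of the 5, at 21.7 and 27.1 TPM in treated OE1 and 54.6 and 56.7 TPM in untreated OE1 (-1.17 ± 0.12, limma adjusted p = 0.00368).

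Other oxidoreductase families had few called members. Of 111 short-chain dehydrogenase genes, 4 rose (3.6%, against 1.66% of all genes) and none fell. Of these, 3 carry neighbouring locus numbers, LOC_Os07g46920, LOC_Os07g46930 and LOC_Os07g46950, and share a Swiss-Prot match. LOC_Os07g46930 had 4.38 and 4.12 TPM, against 0.71 and 0.55 TPM (1.69 ± 0.18, limma adjusted p = 0.00407). LOC_Os11g40690, matched to the cinnamyl alcohol dehydrogenase CAD4 of lignin synthesis, had 3.95 and 5.03 TPM in treated OE1 and 0.71 and 0.72 TPM in untreated OE1 (1.67 ± 0.19, limma adjusted p = 0.00501). It was the one member of 45 zinc-binding dehydrogenases that was called. LOC_Os04g39980, annotated as a gibberellin 20 oxidase, had 68.8 and 67.2 TPM, against 28.2 and 26.1 TPM (1.29 ± 0.09, limma adjusted p = 0.0011).

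Transporter lists had few or no calls, beside 1.66% higher and 0.743% lower over all genes. Among 107 ABC transporter genes and 43 MATE transporter genes, 0 were called in either direction, with median log2 folds of -0.13 and -0.11. ABC transporter genes had a median length of 2960 nt, and of all kept genes of 2000 to 5000 nt only 0.125% were higher and 0.238% lower. The 68 NRT1/PTR and 29 aquaporin genes also had 0 calls. In the other transporter lists, 1 of 81 sugar transporter genes rose, and 2 of 13 SWEET sugar exporter genes and 1 of 49 amino acid transporter genes fell.

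The P450 calls of LOC_Os07g23570, LOC_Os03g55240, LOC_Os03g55230 and LOC_Os06g03930 and the glycosyltransferase call of LOC_Os01g08440 held when the spread of each gene was taken from all 8 libraries of the series (limma adjusted p from 0.00275 to 0.0414). Those of LOC_Os07g46930, LOC_Os11g40690 and LOC_Os04g39980 held as well. The calls of the P450 genes that fell, LOC_Os02g12690 and LOC_Os07g44110, of the glycosyltransferase genes LOC_Os02g10880, LOC_Os09g34214 and LOC_Os09g34250 and of all named acyltransferase and glutathione S-transferase genes did not (0.0557 to 0.270), nor did those of LOC_Os07g46920 and LOC_Os07g46950 (0.458 and 0.330). With a pseudocount of 5 in place of 1, LOC_Os07g46930, LOC_Os11g40690, LOC_Os02g28220, LOC_Os09g34214, LOC_Os10g22070 and LOC_Os10g38640 were no longer called. LOC_Os10g38640 was not called either without untreated OE1 replicate 2, nor LOC_Os07g46920 without either untreated OE1 library.

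**Figure D2:**
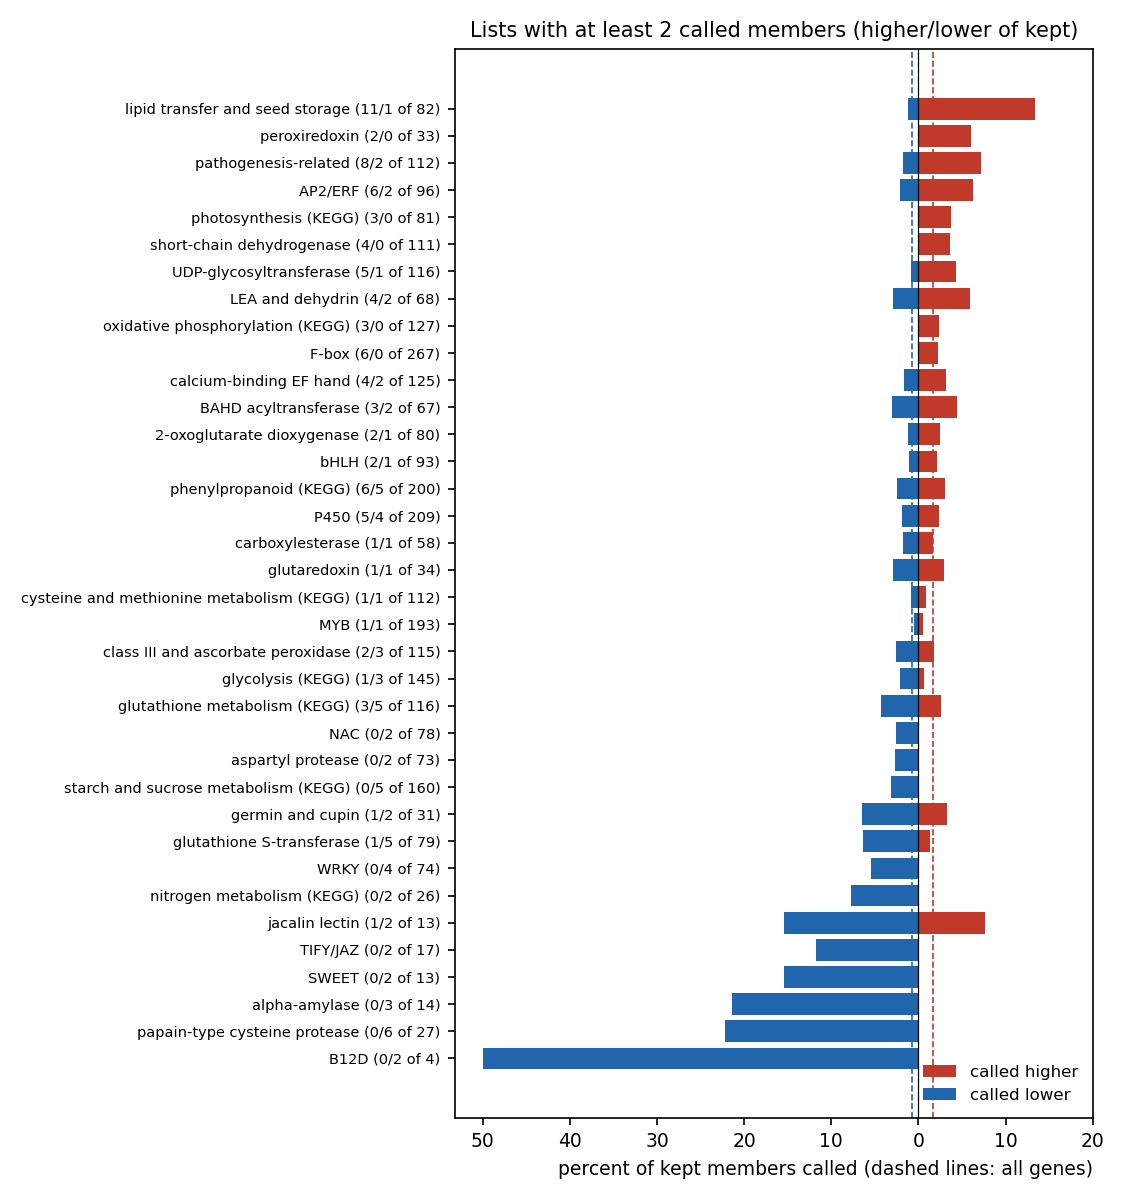
Percent of kept members called higher (red, right) or lower (blue, left) in treated against untreated OE1, for the lists with at least 2 called members; counts of higher and lower of kept stand beside each name, and the dashed lines mark all genes, at 1.66% and 0.743%. Lipid transfer proteins reach furthest to the right, and B12D, papain-type protease and alpha-amylase genes furthest to the left.

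Of the rice relatives of the yeast enzyme, 10 old yellow enzyme genes were kept, of 13 in the matrix. None was called, and their median log2 fold was -0.06. The most abundant was LOC_Os06g11210, matched to OPR5, with 70.7 and 65.4 TPM in treated OE1, against 92.8 and 85.8 TPM in untreated OE1. Its log2 fold of -0.39 ± 0.08 had a limma adjusted p of 0.0409 but lay below the fold threshold. LOC_Os08g35740, matched to OPR7, had 43.5 and 39.0 TPM, against 44.1 and 46.3 TPM (-0.13 ± 0.09, limma adjusted p = 0.477). LOC_Os06g11290, matched to OPR1, had 20.8 and 14.1 TPM in treated OE1 and 12.9 and 10.8 TPM in untreated OE1, the highest fold in the list (0.50 ± 0.19, limma adjusted p = 0.177). LOC_Os01g27230, matched to OPR10, was nearly level at 18.8 and 16.2 TPM, against 18.1 and 15.2 TPM, and the folds of the other 6 lay between -0.43 and 0.26.

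Peroxide-reducing enzymes changed in a narrow set. The pair of 1-Cys peroxiredoxin genes rose together. These enzymes reduce peroxides with a single active cysteine and are best known from seeds. LOC_Os07g44440 had 322 and 321 TPM in treated OE1, against 121 and 114 TPM in untreated OE1 (1.45 ± 0.07, limma adjusted p = 0.000532). Its neighbour LOC_Os07g44430 had 95.6 and 81.8 TPM, against 32.8 and 38.5 TPM (1.29 ± 0.12, limma adjusted p = 0.00236). The peroxiredoxin list of 33 kept genes also holds protein disulfide isomerases, thioredoxins and glutathione peroxidases. In it these 2 rose and 0 fell. Neighbouring copies like these can share reads, so the split between them is uncertain. Of 115 peroxidase genes 2 rose and 3 fell. LOC_Os02g14430 rose to 27.9 and 28.7 TPM in treated OE1, against 12.7 and 13.1 TPM in untreated OE1 (1.08 ± 0.10, limma adjusted p = 0.00221). None of 66 thioredoxin genes and 12 superoxide dismutase and catalase genes was called, where 1.66% of all genes were higher and 0.743% lower. With the spread from all 8 libraries, LOC_Os07g44440 and LOC_Os02g14430 remained called (limma adjusted p = 0.0487 and 0.0433) and LOC_Os07g44430 did not (0.0902). The call of LOC_Os02g14430 ended with a pseudocount of 5.

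Among called genes with a described function and a mean of at least 5 TPM in either group, the largest fold in either direction was that of a jacalin-like lectin. These proteins bind sugars and often respond to stress or hormones. LOC_Os12g14440 had 45.04 and 55.1 TPM in treated OE1, against 4.01 and 2.77 TPM in untreated OE1 (3.55 ± 0.17, limma adjusted p = 0.000534). LOC_Os06g07250 went the other way, with 13.1 and 18.5 TPM in treated OE1 and 148 and 148 TPM in untreated OE1 (-3.17 ± 0.15, limma adjusted p = 0.000532). LOC_Os01g25280 fell to 14.4 and 16.3 TPM, against 116 and 134 TPM (-2.95 ± 0.11, limma adjusted p = 0.000368). LOC_Os01g24710, matched to the salt-induced lectin SALT and the most abundant of the family, had 543 and 567 TPM, against 671 and 727 TPM, and was not called (-0.33 ± 0.07). Of the 13 jacalin genes kept, 1 rose (7.69%, against 1.66% of all genes), 2 fell (15.4%, against 0.743%) and 10 were not called. The list median was -0.25, against -0.04 over all genes. LOC_Os03g28160 (-0.63, limma adjusted p = 0.0458) and LOC_Os05g43240 (-0.84, limma adjusted p = 0.0412) lay below the fold threshold. These 3 calls held with the spread from all 8 libraries.

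Papain-type cysteine proteases, which break down proteins in germinating seeds and senescing organs, fell in 6 of 27 genes (22.2%, against 0.743% of all genes). None rose, where 1.66% of all genes did. LOC_Os09g39090, a vignain precursor, was listed at 0 and 0.06 TPM in treated OE1, against 8.53 and 7.06 TPM in untreated OE1 (-3.09 ± 0.19, limma adjusted p = 0.000835). LOC_Os09g39070, a thiol protease precursor with a nearby locus number, had 6.69 and 4.15 TPM, against 44.1 and 42.5 TPM (-2.81 ± 0.19, limma adjusted p = 0.00116). LOC_Os01g67980, annotated as cysteine proteinase EP-B 1, a type named in barley for the digestion of storage protein, had 8.75 and 11.3 TPM, against 56.9 and 48.7 TPM (-2.29 ± 0.14, limma adjusted p = 0.000995). The other 3 that fell were the bromelain-like genes LOC_Os01g24550, LOC_Os01g24560 and LOC_Os01g24570, at -1.80, -1.66 and -1.57. Below the fold threshold, LOC_Os01g42780 (EP-B 2) and LOC_Os06g38450 (matched to SAG39) went up (0.96 and 0.83, limma adjusted p = 0.0472 and 0.0129). LOC_Os04g24600 went down (-0.62, limma adjusted p = 0.0120). The abundant members were close to level. LOC_Os02g27030 had 858 and 795 TPM in treated OE1 and 845 and 822 TPM in untreated OE1 (-0.01 ± 0.07), and LOC_Os09g27030, the oryzain gamma chain, had 354 and 330 TPM, against 314 and 312 TPM (0.13 ± 0.07).

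Starch-degrading alpha-amylases showed the same kind of split. The list of 14 kept genes also holds starch branching and debranching enzymes, and 3 of its members fell (21.4%, against 0.743% of all genes). LOC_Os02g52700 and LOC_Os02g52710, both matched to AMY1.1, differed in level but both fell. LOC_Os02g52700 had 5.43 and 4.42 TPM in treated OE1, against 36.0 and 24.6 TPM in untreated OE1 (-2.38 ± 0.19, limma adjusted p = 0.00184). LOC_Os02g52710 had 177 and 141 TPM, against 510 and 343 TPM (-1.40 ± 0.19, limma adjusted p = 0.00954). LOC_Os09g28420, matched to AMY1.6, had 11.9 and 9.19 TPM, against 58.4 and 42.3 TPM (-2.14 ± 0.18, limma adjusted p = 0.0021). LOC_Os04g33040, also an alpha-amylase gene, was level at 40.7 and 32.7 TPM, against 36.4 and 36.2 TPM (0.01 ± 0.12). The debranching enzyme match ISA3 (LOC_Os09g29404) had 96.1 and 91.1 TPM in treated OE1 and 47.3 and 53.9 TPM in untreated OE1, just under the fold threshold (0.88 ± 0.09, limma adjusted p = 0.00389). The labels give whole plants and do not say whether the remains of the grain were included.

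Other genes that fell belonged to small families. Of 4 B12D genes, small proteins first named from barley grain, 2 fell, where 0.743% of all genes did. LOC_Os07g41340 had 2.00 and 2.98 TPM, against 22.5 and 20.0 TPM (-2.69 ± 0.17, limma adjusted p = 0.00101), and its neighbour LOC_Os07g41350 had 9.82 and 11.6 TPM, against 38.0 and 39.9 TPM (-1.77 ± 0.11, limma adjusted p = 0.00101). Germin-like proteins sit in the cell wall, and both GER1 (LOC_Os08g08980) and its neighbour GER2 (LOC_Os08g08970) fell. GER1 had 14.6 and 17.6 TPM in treated OE1, against 59.8 and 63.5 TPM in untreated OE1 (-1.88 ± 0.11, limma adjusted p = 0.000799), and GER2 had 37.6 and 46.4 TPM, against 139 and 160 TPM (-1.81 ± 0.12, limma adjusted p = 0.00116). LOC_Os01g37000, annotated as a carboxyl-terminal peptidase, had 43.2 and 34.3 TPM, against 218 and 224 TPM (-2.49 ± 0.12, limma adjusted p = 0.000532). The beta-glucosidase gene BGLU34 (LOC_Os10g17650) had 6.49 and 5.50 TPM, against 27.0 and 30.1 TPM (-2.08 ± 0.12, limma adjusted p = 0.000817). A metallothionein gene matched to MT4B, LOC_Os12g38051, had 67.5 and 53.4 TPM, against 189 and 193 TPM (-1.65 ± 0.12, limma adjusted p = 0.00124), and the other 8 metallothionein genes were not called.

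Of the 15 largest named falls, 11 were still called with the spread from all 8 libraries, as were 40 of all 182 lower genes. Among the lectin, protease, amylase and small-family falls, those of LOC_Os02g52710, LOC_Os12g38051, LOC_Os07g41350, LOC_Os01g24550 and LOC_Os01g24570 were not (limma adjusted p from 0.053 to 0.0994). LOC_Os02g52710 was not called either without treated OE1 replicate 2.

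**Figure D3:**
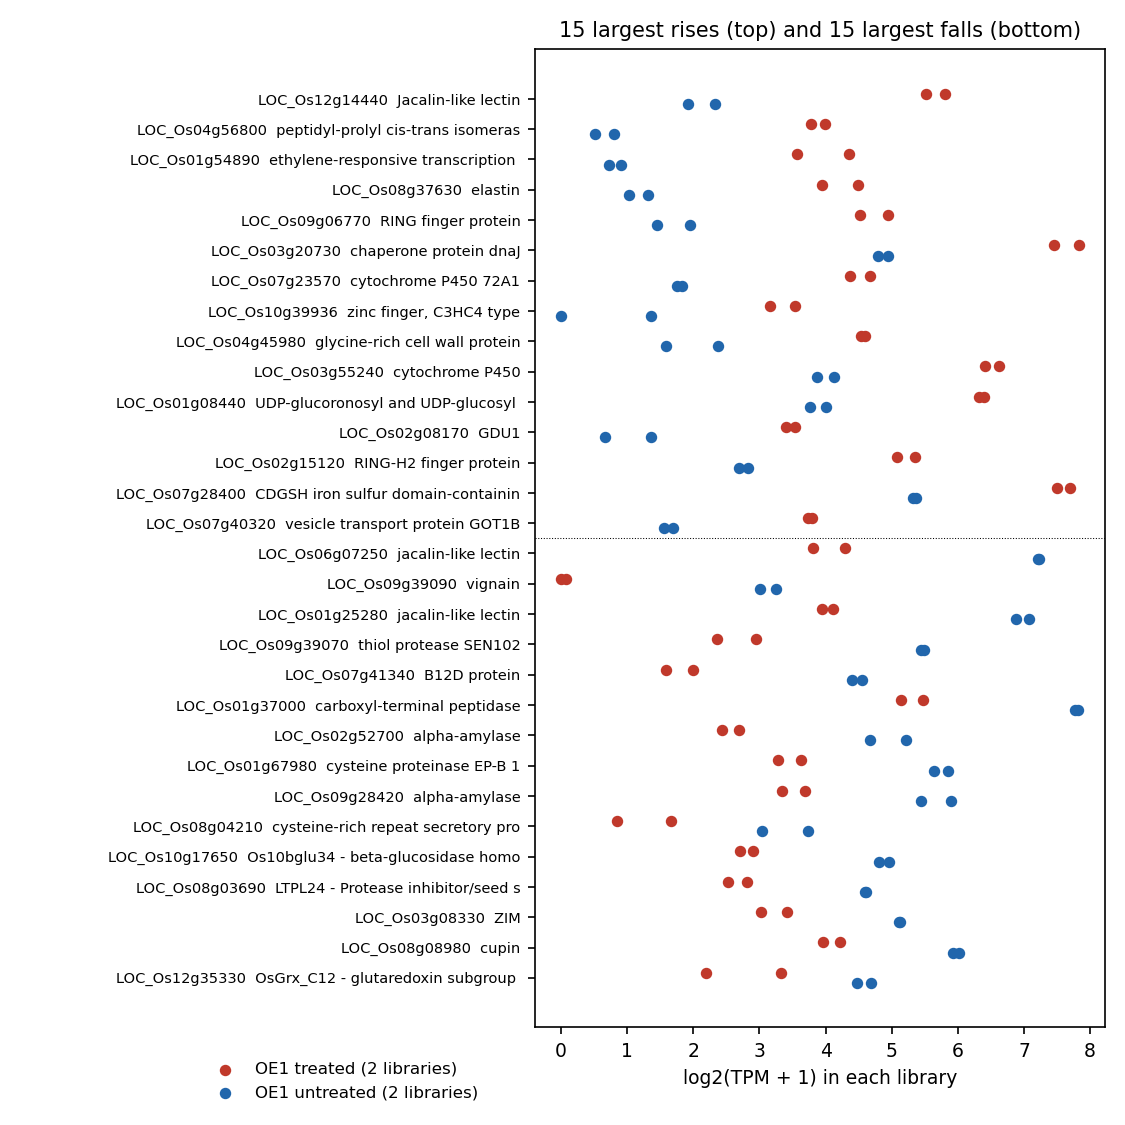
The 15 largest rises (upper block) and 15 largest falls (lower block) among called genes with a described function and a mean of at least 5 TPM in either group, as log2(TPM + 1) in each of the 2 treated OE1 libraries (red, drawn slightly above) and the 2 untreated OE1 libraries (blue). In every gene the red and blue points are apart, as the choice of these genes required. The lectin genes LOC_Os12g14440 and LOC_Os06g07250 head the 2 blocks.

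Nitrogen and carbon metabolism had few calls, beside 1.66% higher and 0.743% lower over all genes. GLN1-2 (LOC_Os03g12290), a glutamine synthetase of the cytosol that fixes ammonium onto glutamate, had 79.6 and 70.5 TPM in treated OE1, against 208 and 212 TPM in untreated OE1 (-1.47 ± 0.08, limma adjusted p = 0.000718). It was 1 of 2 genes that fell among 26 of the nitrogen metabolism list, with none that rose and a list median of -0.16. A nitrite reductase gene picked out after its values were seen, LOC_Os02g52730, had 32.2 and 27.4 TPM, against 44.1 and 41.5 TPM, and was not called (-0.51 ± 0.11). In the 4 ZH11 libraries its level was 0.04 to 0.66 TPM. Pyruvate decarboxylase, the enzyme that opens ethanol fermentation, fell in both neighbouring genes. PDC1 (LOC_Os05g39310) had 0.87 and 1.25 TPM, against 4.35 and 5.04 TPM (-1.47 ± 0.19, limma adjusted p = 0.00741), and LOC_Os05g39320 had 0.81 and 0.37 TPM, against 3.86 and 3.66 TPM (-1.60 ± 0.21, limma adjusted p = 0.00833). With the phosphoenolpyruvate carboxykinase gene LOC_Os10g13700 they were the 3 of 145 glycolysis genes that fell, and 1 rose. None of these 3 falls was called with a pseudocount of 5 or without untreated OE1 replicate 1, and neither PDC call held without untreated OE1 replicate 2. With the spread from all 8 libraries PDC1 remained called (limma adjusted p = 0.0487), and LOC_Os05g39320 and LOC_Os10g13700 did not (0.0902 and 0.0891). Carbon fixation genes had 1 of 82 lower and a median of -0.21, and none of 16 light-harvesting antenna genes was called.

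Most transcription factor genes were not called, beside 1.66% higher and 0.743% lower over all genes. Of 78 NAC genes 2 fell (2.56%), of 93 bHLH genes 2 rose and 1 fell, and of 193 MYB genes 1 rose and 1 fell. Of 74 WRKY genes, regulators of defence and senescence, 4 fell (5.41%, against 0.743% of all genes) and none rose. WRKY45 (LOC_Os05g25770), known in rice for defence signalled through salicylic acid, had 20.1 and 21.8 TPM in treated OE1, against 43.1 and 48.1 TPM in untreated OE1 (-1.09 ± 0.10, limma adjusted p = 0.00249). WRKY62 (LOC_Os09g25070) had 4.69 and 4.22 TPM, against 13.1 and 14.7 TPM (-1.45 ± 0.13, limma adjusted p = 0.00234). WRKY76 (LOC_Os09g25060) had 4.13 and 5.64 TPM, against 14.1 and 14.6 TPM (-1.40 ± 0.16, limma adjusted p = 0.00482). WRKY45 and WRKY62 remained called with the spread from all 8 libraries (limma adjusted p = 0.0383 and 0.0487), and WRKY76 did not (0.0634). All 3 calls ended with a pseudocount of 5 in place of 1.

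TIFY proteins, which include the JAZ repressors of jasmonate signalling, had the median furthest below that of all genes among the hormone lists, at -0.34. Of the 17 genes, 2 were lower (11.8%, against 0.743% of all genes) and none was higher, where 1.66% of all genes were. TIFY11B (LOC_Os03g08330) had 7.15 and 9.72 TPM in treated OE1, against 33.6 and 34.1 TPM in untreated OE1 (-1.90 ± 0.15, limma adjusted p = 0.00159), and TIFY10C (LOC_Os09g26780) had 5.69 and 6.39 TPM, against 16.4 and 14.0 TPM (-1.20 ± 0.13, limma adjusted p = 0.00461). The abundant TIFY10B (LOC_Os07g42370) had 147 and 148 TPM, against 253 and 242 TPM, below the fold threshold (-0.74 ± 0.07, limma adjusted p = 0.00234). Both TIFY calls ended with the spread from all 8 libraries (limma adjusted p = 0.0981 and 0.0934). None of 45 Aux/IAA, 11 GH3, 47 SAUR, 81 PP2C and 25 response regulator genes was called, beside 1.66% higher and 0.743% lower over all genes.

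Among AP2/ERF genes, 6 of 96 rose (6.25%, against 1.66% of all genes) and 2 fell (2.08%, against 0.743%). LOC_Os01g54890, annotated as ethylene-responsive transcription factor 2, had 10.9 and 19.4 TPM in treated OE1, against 0.66 and 0.88 TPM in untreated OE1 (3.14 ± 0.26, limma adjusted p = 0.00199). The genes matched to DREB1G (LOC_Os02g45450) and DREB1B (LOC_Os09g35010), regulators of cold and drought responses, both fell. DREB1G had a log2 fold of -1.52 ± 0.20, and DREB1B had 4.08 and 3.94 TPM, against 12.3 and 12.1 TPM (-1.40 ± 0.12, limma adjusted p = 0.00216). None of these 8 calls held with the spread from all 8 libraries, and that of DREB1G ended also with a pseudocount of 5 and without either untreated OE1 library.

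The lipid transfer and seed storage list, small cysteine-rich secreted proteins, had 11 of 82 genes higher (13.4%, against 1.66% of all genes) and 1 lower (1.22%, against 0.743%). LOC_Os10g36170 had 454 and 605 TPM in treated OE1, against 129 and 141 TPM in untreated OE1 (1.95 ± 0.14, limma adjusted p = 0.00124). Pathogenesis-related families had 8 of 112 higher (7.14%) and 2 lower (1.79%), with a median of 0.20. LOC_Os07g03600, a CAP-domain protein of the PR-1 type, had 12.02 and 15.7 TPM, against 3.24 and 3.01 TPM (1.84 ± 0.16, limma adjusted p = 0.00215). The abundant Bet v 1 gene LOC_Os12g36830 had 815 and 887 TPM, against 364 and 368 TPM (1.22 ± 0.07, limma adjusted p = 0.000718). Of the 267 F-box genes, which select proteins for ubiquitin tagging, 6 rose and none fell, a share of 2.25% that lies near the 1.66% of all genes. LOC_Os11g14140 had 345 and 365 TPM, against 109 and 115 TPM (1.66 ± 0.07, limma adjusted p = 0.000451). With the spread from all 8 libraries, none of the 11 lipid transfer and 6 F-box rises held, and 2 of the 8 pathogenesis-related rises did. The call of LOC_Os12g36830 was lost (limma adjusted p = 0.188), and that of LOC_Os07g03600 held (0.0331).

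Some abundant genes also rose, among them that of a small chloroplast protein. Photosystem I subunit N (LOC_Os12g08770) had 1256 and 1272 TPM in treated OE1, against 495 and 509 TPM in untreated OE1 (1.33 ± 0.06, limma adjusted p = 0.000474). It was 1 of 3 photosynthesis genes that rose of 81, and the list's median was -0.06. The calcium-binding EF hand list had 4 of 125 higher and 2 lower, including LOC_Os03g29770 at 539 and 595 TPM, against 229 and 223 TPM (1.32 ± 0.07, limma adjusted p = 0.000718). The most abundant higher gene was LOC_Os01g15270, with no described function, at 3775 and 4044 TPM, against 1276 and 1347 TPM (1.57 ± 0.07, limma adjusted p = 0.000451). With the spread from all 8 libraries, none of the 3 photosynthesis and 4 EF hand rises nor that of LOC_Os01g15270 was called (limma adjusted p = 0.184 for LOC_Os12g08770, 0.233 for LOC_Os03g29770 and 0.336 for LOC_Os01g15270). Groups chosen after their values were seen included RING-type zinc fingers, with 12 of 285 higher (4.21%) and 1 lower, and thaumatins, with 4 of 29 higher (13.8%) and none lower, beside 1.66% and 0.743% of all genes. With the spread from all 8 libraries, 1 of the 12 RING-type and 0 of the 4 thaumatin rises were called.

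A measure from outside the comparison moved with these rises. In untreated ZH11, whose libraries took no part in the fit, replicate 2 was below replicate 1 in 356 of the 408 higher genes (87.3%, median log2 difference -0.68). The same was true of 94 of the 182 lower genes (51.6%, median -0.03) and of 45.2% of all kept genes (median 0.03). The share differed between gene groups. It was 11 of 11 in the lipid transfer proteins that rose (median -0.81), 6 of 6 in the AP2/ERF genes (-1.12), 6 of 6 in the F-box genes (-0.81), 4 of 4 in the EF hand genes (-0.89) and 3 of 3 in the photosynthesis genes (-0.97). It was 5 of 5 in the UDP-glycosyltransferase genes that rose (-0.42), 4 of 5 in the P450 genes (-0.03), 1 of 6 in the phenylpropanoid genes (0.07) and 0 of 2 in the peroxiredoxin genes (0.17). Of the 15 largest named rises, 10 were lower by at least 0.5 on the log2 scale in untreated ZH11 replicate 2. They included LOC_Os01g54890, with 2.08 TPM in replicate 1 and 0 in replicate 2, and the dnaJ-type gene LOC_Os03g20730, with 39.7 and 16.9 TPM. The part of this replicate difference in the OE1 result was not tested.

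Gene length moved with the calls as well, and the GC content of reads differed between libraries. The GC content of the genes themselves was not examined. The higher genes had a median length of 828 nt and the lower genes one of 1114.5 nt, against 1614 nt over all kept genes, and 65%, 45.6% and 22.1% of them were at most 1000 nt long. In genes of up to 500 nt, 4.97% were higher and 2.6% lower, whereas among those of 2000 to 5000 nt the shares were 0.125% and 0.238%. The GC content of trimmed reads was 55.43% and 55.32% in the treated OE1 libraries, against 54.76% and 54.63% in the untreated ones. It was 54.62% in untreated ZH11 replicate 1 and 53.51% in replicate 2, and 54.62% and 52.04% in treated ZH11 replicates 1 and 2. Depth was alike, with 50.7 M and 55.4 M trimmed reads in treated OE1 and 56.5 M and 54.8 M in untreated OE1. The GC content differed between the OE1 groups in both libraries, so that it and the treatment cannot be told apart. When a length gradient was removed from each library, 371 genes were higher and 197 lower.

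**Figure D4:**
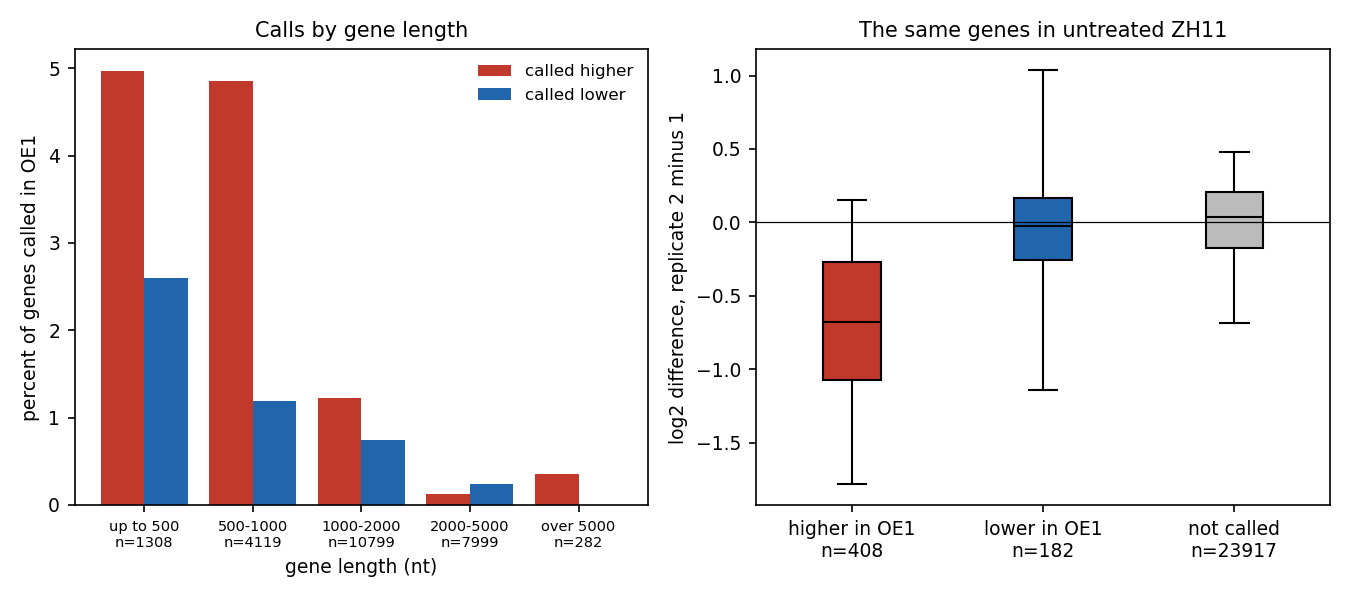
Left, percent of kept genes called higher (red) or lower (blue) in OE1 by gene length, with the number of genes in each class. Right, log2 difference between replicates 2 and 1 of untreated ZH11 for genes called higher, called lower or not called in OE1; boxes span the quartiles with the median, and whiskers the 5th to 95th percentiles. Calls are most frequent in genes of up to 1000 nt, and the genes higher in OE1 have a median difference of -0.68 in ZH11.

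Among the 11929 genes whose ZH11 replicates differed by less than 0.5 on the log2 scale in both ZH11 groups, 98 were higher and 81 lower in treated OE1. The higher share of calls was thus 54.7%, against 69.2% over all genes. This set was chosen after the data had been seen. With the spread taken from all 8 libraries, 42 genes were higher and 40 lower, and 27 of the 79 called genes picked by the naming rule remained called.

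The described share of the genes was also uneven. Of the 408 higher genes 225 had no described function (55.1%), of the 182 lower genes 65 (35.7%), and of all kept genes 32.3%. Entries annotated as transposons made up 17 of the higher and 10 of the lower genes, of 833 kept. These were 2.04% and 1.2% of them, near the 1.66% and 0.743% of all genes. In 17 higher genes both untreated OE1 libraries were listed at 0, of 18 such genes among all kept. In 16 lower genes both treated OE1 libraries were listed at 0, again of 18 among all kept. Such genes passed the filter only through the group where they are high, so these counts are no result about the response.

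Organ markers of the seedling were present and none was called, since none reached the fold threshold. The 5 shoot markers, Rubisco small subunit, chlorophyll-binding protein and Rubisco activase genes, summed to 26200 and 26700 TPM in treated OE1, against 33800 and 32800 TPM in untreated OE1, with a median log2 fold of -0.36. The 5 root markers, silicon, manganese and cadmium transporters and RCc3, summed to 622 and 537 TPM, against 757 and 753 TPM, with a median of -0.57. None was at 0 in any library. Both sums were lower in both treated libraries. RCc3 (LOC_Os02g44310) had 225 and 193 TPM in treated OE1, against 172 and 154 TPM in untreated OE1 (0.36 ± 0.10), while the other 4 root markers had folds below 0, the silicon transporter genes Lsi1 -0.57 and Lsi2 -0.87. Lsi1, Lsi2, the manganese transporter gene NRAMP5, both Rubisco small subunit genes and Rubisco activase were lower at a limma adjusted p of 0.00214 to 0.0333. For the other markers the limma adjusted p was 0.0826 or more. The part of organ proportions in the results above was not tested.

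Several lists for stress and growth had no called member, beside all kept genes, of which 1.66% were higher and 0.743% lower. None of 28 small heat shock protein, 26 HSP70 and HSP90, 80 bZIP, 21 heat shock factor, 264 NB-ARC, 15 lipoxygenase, 63 proteasome, 56 histone, 38 cyclin, 60 DNA replication, 39 expansin and 35 sulfur metabolism genes was called in either direction. The NB-ARC genes had a median length of 3393 nt, within the class of 2000 to 5000 nt where few genes were called. The medians of these lists lay between -0.23 and 0.13, against -0.04 over all genes. In all, 35 of the 85 lists had no called member, and 151 of the 590 called genes fell in any list.

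**Figure D5:**
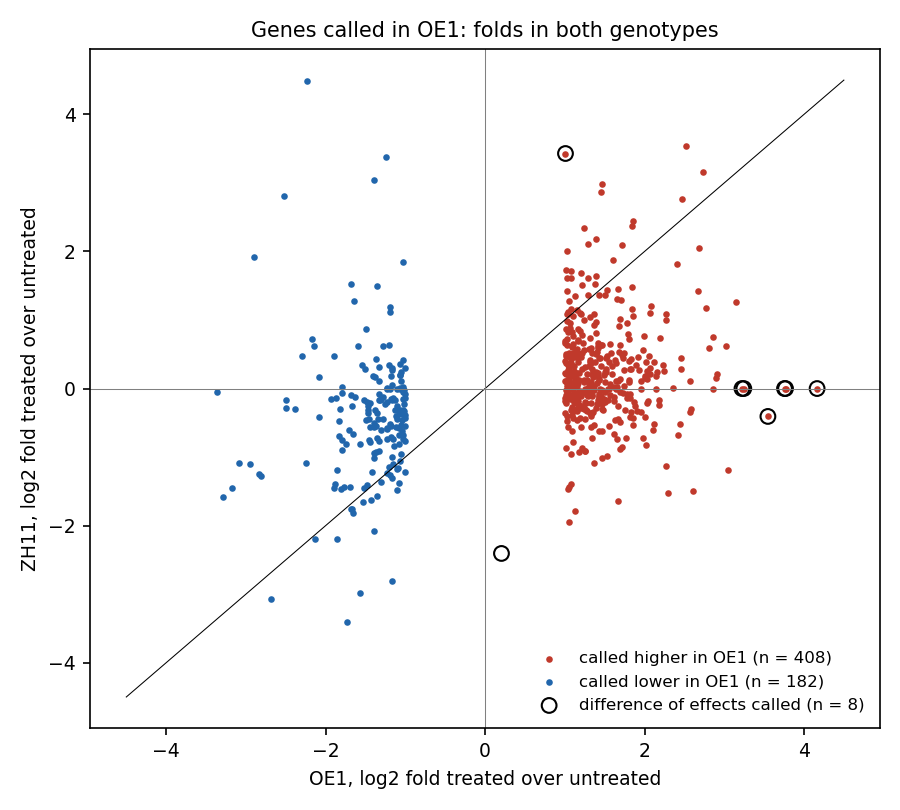
Log2 fold, treated over untreated, in OE1 (horizontal) and in ZH11 (vertical) for the 408 genes called higher (red) and 182 called lower (blue) in OE1; circles mark the 8 genes whose difference of effects was called, and the line marks equal folds. Most red points lie near a ZH11 fold of 0, while the 4 P450 genes named as higher lie above the line.

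In ZH11 the same treatment moved the OE1 genes by different amounts. The ZH11 folds average over treated libraries that differed in GC content (54.62% in replicate 1, 52.04% in replicate 2). Their trimmed reads numbered 51.6 M and 42.1 M. The part of this difference in the ZH11 folds was not tested. The 408 genes higher in OE1 had a median log2 fold of 0.13 in ZH11 and 57 of them (14%) had one of at least 1, against 1.5% of all kept genes. The 182 lower genes had a median of -0.39 in ZH11 and 43 (23.6%) had one of -1 or less, against 1.96% of all. The 4 P450 genes named above as higher in OE1 had log2 folds of 2.37 to 3.54 in ZH11, the glycosyltransferase gene LOC_Os01g08440 one of 2.76 and the glutathione S-transferase gene LOC_Os10g22070 one of 1.51. The match to CAD4, LOC_Os11g40690, had one of -0.25, and the P450 gene LOC_Os07g44110, lower in OE1, one of 1.85. It had 24.5 and 36.0 TPM in treated ZH11, against 7.48 and 7.63 TPM in untreated ZH11, and its difference of effects was not called. The P450 gene LOC_Os03g55240 had 97.8 and 83.7 TPM in treated OE1 and 174 and 226 TPM in treated ZH11, where the untreated libraries had 16.2 and 16.0 TPM. The peroxiredoxin gene LOC_Os07g44440 had 322 and 321 TPM in treated OE1 and 663 and 977 TPM in treated ZH11, against 98.8 and 122 TPM in untreated ZH11. The effects in OE1 minus those in ZH11 were -1.02 ± 0.25 and -1.41 ± 0.29, and neither difference was called (limma adjusted p = 0.457 and 0.355).

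Several of the protease, amylase and metabolic genes that fell in OE1 had a higher untreated level in OE1 than in ZH11. LOC_Os02g52700 (AMY1.1) had 36.0 and 24.6 TPM in untreated OE1, against 9.17 and 9.26 TPM in untreated ZH11. LOC_Os01g67980 (EP-B 1) had 56.9 and 48.7 TPM in untreated OE1, against 16.7 and 17.5 TPM in untreated ZH11. GLN1-2 had 208 and 212 TPM, against 102 and 110 TPM. In 115 of the 182 lower genes (63.2%) both untreated OE1 libraries were above all 4 ZH11 libraries, against 11.4% of all kept genes. In 337 of the 408 higher genes (82.6%) both treated OE1 libraries were above all 4 ZH11 libraries, against 12% of all. These shares use the OE1 libraries that also made the calls, so they are a description with no test.

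The difference of the 2 treatment effects was tested in a limma fit over all 8 libraries and 25281 genes. It was called above 0 (OE1 minus ZH11) for 7 genes (0.0277%) and below 0 for 1 (0.00396%), with 1630 genes at an unadjusted p under 0.05. The lectin gene LOC_Os12g14440 had 7.55 and 10.4 TPM in treated ZH11 and 13.0 and 11.2 TPM in untreated ZH11, beside its rise in OE1 (difference 3.95 ± 0.32, limma adjusted p = 0.0229). The peptidyl-prolyl isomerase gene LOC_Os04g56800 had 12.7 and 14.9 TPM in treated OE1, against 0.43 and 0.75 TPM in untreated OE1, and each of the 4 ZH11 libraries listed it at 0 (3.22 ± 0.32, limma adjusted p = 0.0461). LOC_Os09g17560, matched to the acetylserotonin O-methyltransferase ASMT1 of melatonin synthesis, was level in OE1 at 15.9 and 16.4 TPM treated and 14.1 and 13.6 TPM untreated. In ZH11 it had 7.70 and 7.04 TPM treated, against 43.0 and 43.6 TPM untreated (2.61 ± 0.20, limma adjusted p = 0.0187). The glycosyltransferase gene LOC_Os09g34250 had 15.8 and 14.0 TPM in treated OE1, against 7.08 and 6.71 TPM in untreated OE1. Its levels were 57.8 and 56.6 TPM in treated ZH11, against 4.73 and 4.09 TPM in untreated ZH11 (-2.42 ± 0.22, limma adjusted p = 0.0378).

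None of these 8 calls held with a replicate block (limma adjusted p from 0.0846 to 0.108) or with a pseudocount of 0.1 (0.0563 to 0.430). Leaving out any single library of OE1 or untreated ZH11 left 0 genes called by limma in either direction, with 821 to 1638 genes at an unadjusted p under 0.05. When treated ZH11 replicate 1 was left out, 1336 genes were called above 0 and 1373 below 0, and when replicate 2 was left out, 12 and 16.

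The authors' deposited table for the same comparison lists 531 genes, 364 higher and 167 lower. Of the genes called here, 280 of the 408 higher (68.6%) and 123 of the 182 lower (67.6%) are in that table in the same direction, and 0 are in the opposite one. They make up 76.9% of the higher and 73.7% of the lower genes in the authors' deposited table. Their test is not given in the sources used here.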

How the data were processed

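The values used were TPM (abundances scaled for length and library total), which the authors deposited to 2 decimals for 57403 genes in 8 libraries. For the genes they called, the authors' deposited table adds an estimated count in each library, their log2 fold and its p-value. Each count of trimmed reads and its GC percent are as deposited, per the file headers. Cufflinks 2.2.1 appears without a stated role, per the submitters' processing notes. How reads were aligned and counted, whether strand was used, the genome build and the authors' test are not given in the sources used here.

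From the deposited TPM, log2(TPM + 1) was computed, and limma 3.58.1 (R 4.3.3, eBayes with trend) was fitted to the 4 OE1 libraries, with Benjamini-Hochberg adjustment over all kept genes. The difference of effects used 4 group means over 8 libraries. The OE1 fit left 2 residual degrees of freedom, with 4.402 added from the prior. The fit was tested on simulated data. edgeR 4.0.16 served only for TMM factors. Tables and figures were made with Python 3.11.15, pandas 2.3.3, numpy 2.4.6 and matplotlib 3.10.9. Count tests were not run, since estimated counts cover only called genes. Per-library columns without a known sample numbered 0.

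The members and the 85 lists, built from Pfam domains and KEGG pathways, were chosen with earlier results of these data known. Named genes were the 15 largest described, non-overlapping folds in each direction with a mean of at least 5 TPM, 3 per list with at least 4 called members, the 5 most abundant in each direction (79 called genes in all) and, with none of them called, old yellow enzymes with a mean of at least 5 TPM. All other genes named in the report, mostly neighbours, abundant members or further examples, were chosen after their values were seen. Symbols are best Swiss-Prot matches. Alternatives were other scalings, pseudocounts, filters, a replicate block, the spread from 8 libraries and each library left out. Genome coordinates and sequences were not used here.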

Additional observations from a re-analysis of the deposited data

Results flagged for a closer look

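For 8 genes the treatment effect in OE1 differed from that in ZH11 by the interaction test of limma over 8 libraries. LOC_Os09g07150, with no described function, had the largest difference, 4.164 on the log2 scale (limma adjusted p = 0.0187), with 16.5 and 17.4 TPM in treated OE1 and 0 in each of the other 6 libraries. LOC_Os12g14440, the jacalin-like lectin gene, differed by 3.954 (limma adjusted p = 0.0229). LOC_Os12g42750, annotated as a transposon protein, differed by 3.768 (limma adjusted p = 0.0187), with 19.2 and 19.4 TPM in treated OE1, against 0.51 and 0.47 TPM in untreated OE1 and 0 in ZH11. MSTRG.19809, an assembled gene with no description, differed by 3.756 (limma adjusted p = 0.0383), with 10.3 and 15.1 TPM in treated OE1 and 0 elsewhere. LOC_Os01g33720, a hypothetical protein gene, differed by 3.245 (limma adjusted p = 0.0383), with 8.50 and 8.46 TPM in treated OE1 and 0 elsewhere. LOC_Os04g56800, the peptidyl-prolyl isomerase gene, differed by 3.222 (limma adjusted p = 0.0461). LOC_Os09g17560, the ASMT1 match, differed by 2.611 (limma adjusted p = 0.0187), with its larger change, a lower level after treatment, in ZH11. LOC_Os09g34250, the glycosyltransferase gene, differed by -2.421 (limma adjusted p = 0.0378) and rose more in ZH11. These values depend on the pseudocount, most for the 3 genes at 0 in 6 libraries, and are no bounds. That of LOC_Os09g07150 was 7.412 with 0.1 in place of 1 and 2.133 with 5. In the same way LOC_Os12g42750 had 5.04 and 2.146, and LOC_Os04g56800 had 4.368 and 1.748. Like the 3 genes at 0, they were below 1 TPM outside treated OE1. All of them therefore passed the filter only through treated OE1, where they are high. None of the 8 differences was called with a pseudocount of 0.1 (limma adjusted p from 0.0563 to 0.430) or with a replicate block (0.0846 to 0.108).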

How the results depend on the processing

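The OE1 counts of higher and lower genes, 408 and 182, stayed within 1.5 times of these values under TMM and median-of-ratios scaling, a pseudocount of 0.1, removal of the length gradient, a replicate block and no eBayes trend. They were 185 and 54 with a pseudocount of 5, 221 and 90 with no filter, 327 and 115 with a minimum of 5 TPM, 42 and 40 with the spread from all 8 libraries, 1290 and 824 with no fold threshold, and 98 and 81 in genes with alike ZH11 replicates. Leaving out 1 OE1 library gave 274 to 459 higher and 87 to 281 lower genes, the lone sample of a group being assumed to vary like the others. Without untreated replicate 1 there were 274 and 87, without untreated replicate 2 315 and 91, and without treated replicate 1 459 and 281. Their cause was not tested. None of the 79 called genes picked by the naming rule changed direction under the settings in which it was tested. These were all except the minimum of 5 TPM (68 tested) and alike ZH11 replicates (28 tested). This adds little support, because the settings of filter, block, spread, trend and fold threshold leave the fold itself unchanged. The groups of called genes do not overlap, so leaving out 1 library could not change the direction either. Among the 7 old yellow enzyme genes averaging 5 TPM or more in either OE1 group, 1 was called under any setting, LOC_Os06g11210 with no fold threshold. The deviations of same-numbered OE1 libraries had a correlation of 0.0583 over 24507 genes, so that the numbers are not taken to pair the samples. With the replicate block the OE1 counts were 472 and 221.

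For the difference of effects, 7 and 1 genes became 9 and 2 with TMM scaling, 7 and 2 with median-of-ratios scaling, 9 and 1 with a pseudocount of 5, 9 and 5 with no filter, 2 and 1 with a minimum of 5 TPM, 9 and 4 with the length gradient removed, and 1 and 0 with weights by library spread. Limma called 0 and 0 with a pseudocount of 0.1 and 0 and 0 with the replicate block, beside 1552 and 1430 genes at an unadjusted p under 0.05. Leaving out 1 library gave 0 to 1336 and 0 to 1373. No read depth per gene can be had from the TPM, and estimated counts cover only genes that the authors called. Some of these counts were low. LOC_Os01g54890 had 6 and 8 in untreated OE1, against 89 and 186 in treated OE1. LOC_Os12g36840 had 41 and 52 in untreated OE1, against 4 and 10 in treated OE1. For low genes outside that table the depth is unknown.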
